A study of Homo sapiens with 12 samples.

Results

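The genes described here are 10 members of the ATF4 stress axis, the transcription factors ATF4, CEBPG, CEBPB, ATF5, ATF3 and DDIT3 and the effectors TRIB3, CHAC1, DDIT4 and SESN2. They were taken by symbol from the count tables of an RNA sequencing study in human acute myeloid leukemia cell lines, and all 10 were found among the 60648 genes listed. The study compared cells carrying a control hairpin with cells carrying a hairpin against PSPC1, a paraspeckle RNA-binding protein, or against SPI1, which encodes PU.1, a transcription factor of the myeloid lineage. There were 6 groups of 2 libraries. MOLM13 cells, kept in RPMI medium with 10% serum, gave a control group and a PSPC1 knockdown group. OCIAML5 cells, kept in α-MEM with 20% serum and 10 ng/mL human GM-CSF, gave a control group and a PSPC1 knockdown group in the same experiment, and a second control group and a PU.1 knockdown group in another. All groups, controls included, had been infected with lentivirus and then selected with puromycin or sorted for GFP, and the labels do not say which was used where, how long the hairpins had acted, how many hairpins were used per target or whether paired libraries are separate cultures. The p-values therefore rest on the spread between such libraries alone, and this may be technical.

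ATF4 is a basic leucine zipper protein whose translation rises when eIF2alpha is phosphorylated, so its protein can change without its messenger RNA. It pairs with C/EBP proteins on composite sites and induces genes of amino acid supply and tRNA charging together with its own partners and brakes. DDIT3, also called CHOP, and ATF3 extend the response under lasting stress, TRIB3 is a pseudokinase that binds ATF4 and restrains it, and CHAC1 degrades glutathione. DDIT4 and SESN2 hold down mTORC1, the kinase complex that couples amino acids to growth, and both are also induced by p53.

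The composite site bound by ATF4 with a C/EBP partner has the core TGATGNAA. It is shown because the members moved together in several of the comparisons below. In the RefSeq promoter windows (GRCh38.p14, from 250 bases before to 50 after each annotated start) it was searched on both strands in the 19 windows of the 10 genes, and 3 windows, of 3 genes, held it. Among all 35116 windows 3.62% did. The 30 bases around each match are given along the strand of the gene, with the match in capitals; in CHAC1 the core lies on the opposite strand, so its reverse complement is read.
CHAC1 (chr15:40953251-40953280, plus strand): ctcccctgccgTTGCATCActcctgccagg
CEBPG (chr19:33374060-33374089, plus strand): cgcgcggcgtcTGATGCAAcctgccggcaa
ATF3 (chr1:212565205-212565234, plus strand): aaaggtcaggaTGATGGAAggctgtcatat
The matches begin 209 bases before the RefSeq start of CHAC1, which lies inside the longer span that GENCODE gives the gene, 42 before one of the starts of CEBPG and 191 before one of the starts of ATF3. CHAC1 and CEBPG share the core TGATGCAA. The palindromic cyclic AMP element TGACGTCA was in no window of these genes (1.85% of all windows), and the AP-1 site TGANTCA was in windows of ATF5 and DDIT3 (7.71% of all). No gene among the 10 had matches to more than 1 of these patterns. A match is a string of letters and not a measured binding site.

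Library totals ran from 15.4 to 39.7 M counts, and all 10 genes passed the filter on low counts used in the main fits. With PU.1 knockdown CHAC1 did not pass an alternative filter at 1 CPM. Levels below are in CPM, counts scaled to a common library size, on 1 scale for the 12 libraries, and they are relative because the RNA content per cell is not known. The knockdowns showed in the targeted genes. PSPC1 went from 133 and 137 CPM to 27.7 and 28.6 CPM in MOLM13, and in OCIAML5 from 100.29 and 100.17 CPM to 18.8 and 19.2 CPM. SPI1 went from 220 and 198 CPM to 46.4 and 45.2 CPM after PU.1 knockdown. The PU.1 knockdown libraries also had less PSPC1, at 58.4 and 56.9 CPM against 102 and 109 CPM (log2 fold change -0.89, adjusted p = 2.1e-23 with edgeR). Of 10 myeloid markers 9 or 10 were detected per library, with CD33 at 72.8 to 135 CPM and ANPEP at or near 0. The B cell marker MS4A1 was at 0 in all libraries, and no T cell receptor complex gene (CD3D, CD3E, CD3G) exceeded 2.98 CPM. The mitochondrial share of counts was 9.32% and 9.86% in the MOLM13 controls against 12.4% in both PSPC1 knockdown libraries. In OCIAML5 it was 12% and 10.8% against 14.3% in both, and in the PU.1 experiment 9.95% and 10% against 10.6% and 9.84%. The summed CPM of the myeloid markers ran from 532 to 1718. It was 1473 and 1453 against 1711 and 1718 with PSPC1 knockdown in MOLM13, and 870 and 847 against 558 and 532 with PU.1 knockdown. SPI1, the target of the PU.1 hairpin, is itself among the markers summed, so its own fall is part of the lower PU.1 sum. The MOLM13 sum hides opposite changes, since of 9 myeloid markers tested 4 rose and 2 fell, beside 27.6% and 29.5% of all genes. LYZ went from 203 and 195 to 357 and 343 CPM, and FLT3 from 330 and 323 to 174 and 169 CPM. In OCIAML5 the sum was 1105 and 1095 against 1137 and 1139 with PSPC1 knockdown. There 3 of 9 markers rose and 4 fell, beside 27.5% and 28.4% of all genes. FLT3 went from 237 and 247 to 25.8 and 25.4 CPM, and PTPRC from 401 and 389 to 680 and 660 CPM. The summed T and NK cell markers went from 26.9 and 24.2 to 12 and 11.3 CPM in MOLM13 and were at most 5.67 CPM in OCIAML5. In MOLM13 they were mostly NKG7, which went from 21.2 and 20.1 to 9.97 and 9.85 CPM. The summed B cell markers, mostly PAX5, went from 23.1 and 24.9 to 12.7 and 13.7 CPM in OCIAML5 with PSPC1 knockdown. Erythroid, epithelial and fibroblast markers summed to at most 2.24 CPM. The part of the mitochondrial share and of these markers in the results below was not tested, and fewer cells of a type cannot be told apart from less RNA per cell.

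ATF4 was the most abundant of the 10 messages in every group. Divided by exon length (GENCODE 29), the mean level of ATF4 lay between 80.2 CPM per kb after PSPC1 knockdown in MOLM13 and 170 CPM per kb after PU.1 knockdown, and the next member, CEBPG in the MOLM13 controls, was at 27.4 CPM per kb. ATF3 was the scarcest in 4 of the 6 groups, at 0.349 CPM per kb after PSPC1 knockdown in MOLM13, and CHAC1 was the scarcest in both groups of the PU.1 experiment, at 0.341 CPM per kb in the controls and 0.23 CPM per kb after PU.1 knockdown. ATF4 (chromosome 22, 39519695 to 39522685, GRCh38) fell in this order of group means: 428 ± 4.3 CPM (SD, n = 2) after PU.1 knockdown, 398 ± 7.2 in the MOLM13 controls, 372 ± 1.5 in the OCIAML5 controls of the PSPC1 experiment, 338 ± 5.8 in those of the PU.1 experiment, 308 ± 4.9 after PSPC1 knockdown in OCIAML5 and 202 ± 5 after PSPC1 knockdown in MOLM13. No libraries of neighbouring groups overlapped in that order. CHAC1 (chromosome 15, 40952962 to 40956519) spanned a far wider range, from 33.5 ± 1.6 CPM in the OCIAML5 controls of the PSPC1 experiment through 18.2 ± 2.5 in the MOLM13 controls to 1.78 ± 0.72 and 1.47 ± 0.51 after PSPC1 knockdown in MOLM13 and OCIAML5, and then 0.701 ± 0.17 in the PU.1 controls and 0.473 ± 0.28 after PU.1 knockdown. The groups at 1.78 and 1.47 CPM overlapped each other, as did those at 0.701 and 0.473 CPM.

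**Figure D1:**
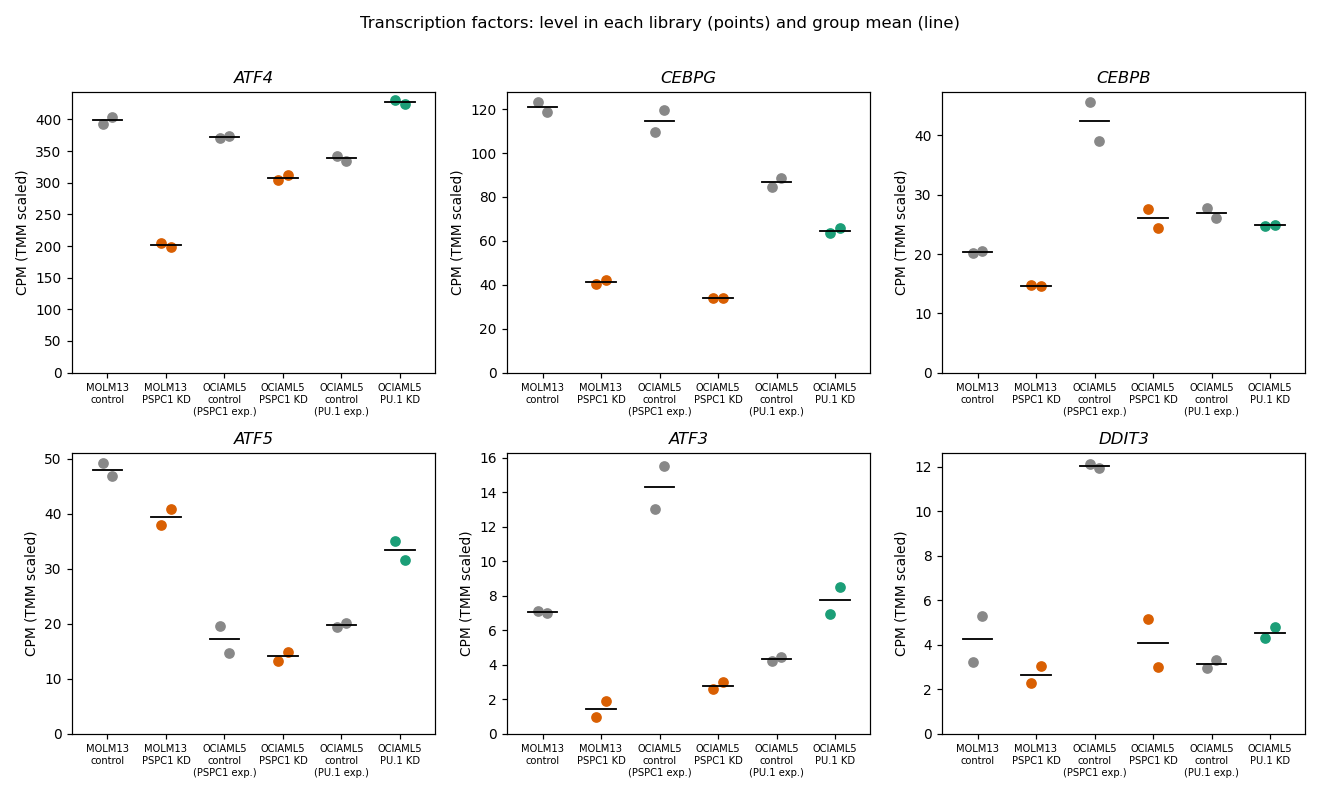
Level of each transcription factor gene in CPM (linear axes from 0) in the 12 libraries, with points for libraries and lines for group means. ATF4 in MOLM13 lies near 400 CPM in the controls and near 202 CPM after PSPC1 knockdown, while ATF3 and DDIT3 are highest in the OCIAML5 controls of the PSPC1 experiment.

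The first comparison set MOLM13 cells with the PSPC1 hairpin against those with the control hairpin. Of the 10 members 9 fell, beside 29.5% of all 16457 genes tested that were called lower and 57% called in either direction (adjusted p under 0.05, edgeR quasi-likelihood test), and the median log2 fold change was -1.28 for the members and 0.01 for all genes. ATF4 itself read 393 and 403 CPM with the control hairpin against 205 and 198 CPM with the PSPC1 hairpin. Every control library was above every knockdown library, and the log2 fold change was -0.996 ± 0.044 (SE; adjusted p = 2.9e-25), which leaves 50.1% of the control level. CEBPG, the C/EBP family member that pairs with ATF4 and lacks an activation domain of its own (chromosome 19, 33373330 to 33382686), went from 123 and 119 CPM to 40.4 and 42.3 CPM (-1.56 ± 0.068, adjusted p = 1.9e-25). CEBPB, a C/EBP activator of myeloid differentiation (chromosome 20, 50190734 to 50192689), went from 20.1 and 20.5 to 14.8 and 14.6 CPM (-0.48 ± 0.12, adjusted p = 0.00065). Of the C/EBP members, CEBPG thus had the larger fold change. ATF3, an early stress repressor (chromosome 1, 212565334 to 212620777), went from 7.09 and 6.97 CPM to 0.943 and 1.87 CPM (-2.31 ± 0.28, adjusted p = 4.3e-10). It was low throughout, with 14 and 31 counts in the knockdown libraries. ATF5 (chromosome 19, 49928702 to 49933935), a close relative of ATF4 tied to mitochondrial stress, went from 49.2 and 46.8 to 38 and 40.9 CPM (-0.30 ± 0.1, adjusted p = 0.011). DDIT3 (chromosome 12, 57516588 to 57521737) read 3.22 and 5.27 CPM in control libraries against 2.29 and 3.02 CPM, groups that nearly touch (-0.66 ± 0.28, adjusted p = 0.044). The DDIT3 call was lost with DESeq2 (adjusted p = 0.085) and without control replicate 2, where the log2 fold change was -0.29 (adjusted p = 0.49), against -1.01 (adjusted p = 0.0044) without control replicate 1. That of ATF5 was lost without control replicate 1 (adjusted p = 0.075) or knockdown replicate 1 (adjusted p = 0.08).

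Among the effectors in MOLM13, CHAC1 fell most. It went from 16.5 and 20 CPM to 2.29 and 1.27 CPM (-3.38 ± 0.22, adjusted p = 6.4e-19), so that 9.62% of the control level was left, and only 0.83% of all genes tested had a lower fold change. TRIB3 (chromosome 20, 362835 to 397559) went from 81.4 and 73.8 to 16.5 and 19.5 CPM (-2.12 ± 0.097, adjusted p = 1.2e-24). DDIT4 (chromosome 10, 72273920 to 72276036) went from 11.8 and 11.5 to 3.23 and 2.66 CPM (-2.00 ± 0.2, adjusted p = 3e-12). SESN2 (chromosome 1, 28259527 to 28282491), the leucine sensor among the sestrins, was the 1 member without a call, with 46.3 and 43.9 CPM against 42.5 and 40.3 CPM (-0.14, 95% interval -0.30 to 0.02, adjusted p = 0.12). The effectors thus split, with CHAC1, TRIB3 and DDIT4 falling 10.4-fold, 4.35-fold and 3.99-fold and SESN2 at 90.7% of its control level.

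**Figure D2:**
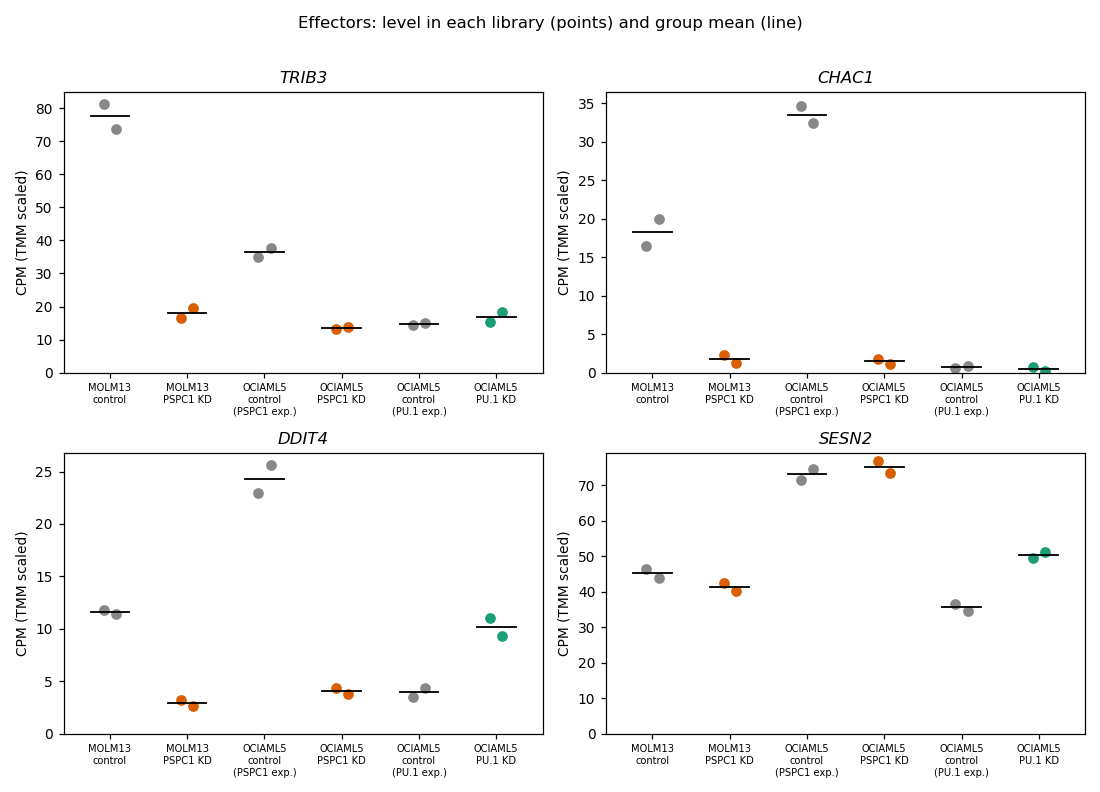
Level of each effector gene in CPM (linear axes from 0) in the 12 libraries, with points for libraries and lines for group means. CHAC1 stands at 32.4 and 34.7 CPM in the OCIAML5 controls of the PSPC1 experiment and under 1 CPM in those of the PU.1 experiment, and SESN2 differs little between PSPC1 knockdown and its controls.

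In OCIAML5, PSPC1 knockdown was compared with the controls of the same experiment. Of the 10 members 8 fell, beside 28.4% of all genes tested called lower, 27.5% higher and 56% in either direction, with a median log2 fold change of -1.47 for the members and 0.02 for all genes. ATF4 itself fell to 84% of control: it read 371 and 373 CPM with the control hairpin against 305 and 311 CPM with the PSPC1 hairpin (-0.25 ± 0.043, adjusted p = 1.5e-06). Its partner CEBPG went from 109.8 and 119.7 CPM to 34.1 and 33.99 CPM (-1.73 ± 0.068, adjusted p = 3.7e-27), the knockdown libraries lying far below both controls. CEBPB went from 45.7 and 39.1 to 27.6 and 24.4 CPM (-0.68 ± 0.1, adjusted p = 1.7e-07). ATF3 went from 13 and 15.5 to 2.58 and 2.999 CPM (-2.34 ± 0.22, adjusted p = 7.9e-13). The pro-apoptotic factor DDIT3 went from 12.1 and 11.9 to 5.17 and 2.999 CPM (-1.51 ± 0.24, adjusted p = 2.7e-07), with both knockdown libraries under both controls. ATF5 read 19.5 and 14.8 CPM against 13.3 and 14.9 CPM, groups that overlap (-0.28, 95% interval -0.52 to -0.03, adjusted p = 0.051). Without control replicate 2 the change of ATF5 was -0.47 (adjusted p = 0.0023), and without control replicate 1 it was -0.06 (adjusted p = 0.81).

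CHAC1 was again the member with the largest fall in OCIAML5, from 34.7 and 32.4 CPM to 1.83 and 1.11 CPM (-4.44 ± 0.2, adjusted p = 9.8e-25), or 4.6% of control, and 0.18% of all genes tested had a lower fold change. DDIT4 went from 22.9 and 25.6 to 4.33 and 3.78 CPM (-2.55 ± 0.17, adjusted p = 5.9e-18). TRIB3 went from 35.1 and 37.8 to 13.1 and 13.8 CPM (-1.42 ± 0.1, adjusted p = 6e-17). The knockdown libraries lay below both controls in DDIT4 and TRIB3, and in every other member except ATF5 and SESN2. How many of all genes separate in this way was not counted. SESN2 read 71.5 and 74.5 CPM against 76.8 and 73.4 CPM, overlapping groups with a log2 fold change of 0.06 (95% interval -0.08 to 0.20, adjusted p = 0.46).

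Whether PSPC1 knockdown acted differently in the 2 lines was tested as an interaction, OCIAML5 minus MOLM13. It passed for ATF4, TRIB3 and CHAC1, 3 of 10 members, beside 30.5% of all genes tested (18% higher and 12.5% lower). The falls of ATF4 and TRIB3 were smaller in OCIAML5, by 0.74 ± 0.061 (adjusted p = 3.7e-14) and 0.70 ± 0.14 (adjusted p = 0.00012) on the log2 scale. For CHAC1 the fall was larger in OCIAML5, with a difference of -1.06 ± 0.35 (adjusted p = 0.016). That call rests on knockdown libraries of 20 to 44 counts: the difference was -0.59 (adjusted p = 0.37) without MOLM13 knockdown replicate 1 and -0.79 (adjusted p = 0.096) without OCIAML5 knockdown replicate 2. For DDIT3 it was -0.85 (adjusted p = 0.08), and -1.22 (adjusted p = 0.013) without MOLM13 control replicate 2 or -1.32 (adjusted p = 0.0086) without OCIAML5 knockdown replicate 1. For ATF3, CEBPG, CEBPB, ATF5, DDIT4 and SESN2 the difference did not pass; the interval was -0.36 to 0.03 for CEBPG and -0.86 to 0.80 for ATF3.

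**Figure D3:**
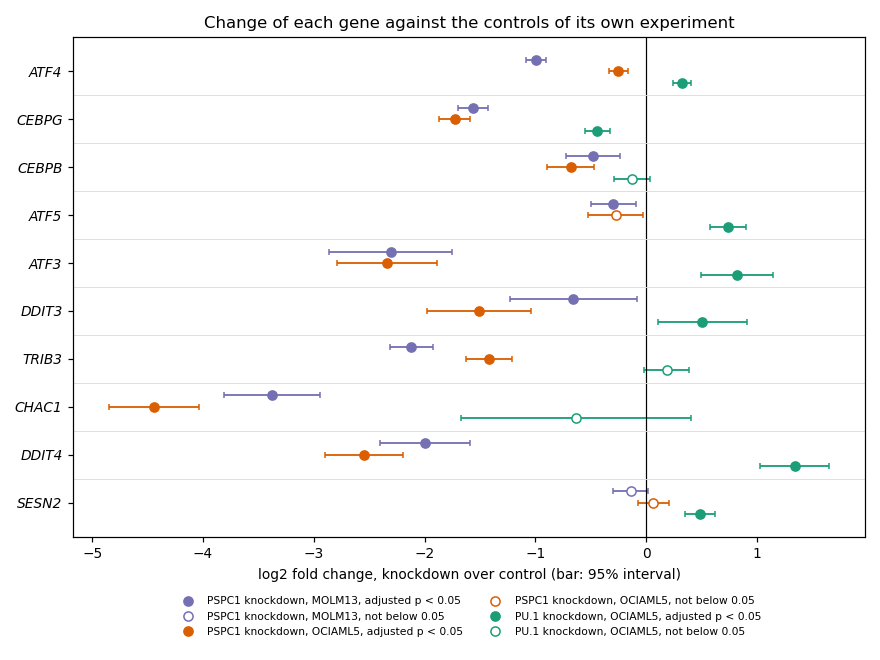
Log2 fold change of each gene after the 3 knockdowns, each against the controls of its own experiment, with bars for 95% intervals and filled points for an adjusted p under 0.05. The PSPC1 points lie left of 0 for 10 genes in MOLM13 and 9 in OCIAML5, and CHAC1 lies furthest left, at -3.38 and -4.44, while the PU.1 points lie between -0.63 and 1.34.

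PU.1 knockdown in OCIAML5 was compared with its own controls. Of the 10 members 6 rose, beside 29.6% of all 16861 genes tested called higher, and 1 fell, beside 30.9% called lower and 60.4% in either direction; the median log2 fold change was 0.41 for the members and 0.02 for all genes. Scaling by library size alone shifted all genes up by 0.151 on the log2 scale, and the values below are under the main scaling. ATF4 rose from 342 and 334 CPM to 431 and 425 CPM (0.32 ± 0.039, adjusted p = 6e-11). ATF5 rose from 19.3 and 20.1 to 35 and 31.7 CPM (0.74 ± 0.082, adjusted p = 3.4e-12) and ATF3 from 4.22 and 4.46 to 6.94 and 8.51 CPM (0.82 ± 0.16, adjusted p = 1e-05). All 3 ATF genes had both knockdown libraries above both controls. The libraries of the knockdown and control groups separated in every member except CHAC1, and the share of all genes that did so was not counted. DDIT3 went from 2.97 and 3.33 to 4.29 and 4.77 CPM (0.51 ± 0.2, adjusted p = 0.024). This small rise was not called by DESeq2 (adjusted p = 0.17), without control replicate 1 (adjusted p = 0.12) or without knockdown replicate 2 (adjusted p = 0.17). Of the C/EBP genes, CEBPG fell from 84.8 and 88.6 to 63.5 and 65.8 CPM (-0.44 ± 0.055, adjusted p = 1.9e-10; -0.29 when scaled by library size alone). CEBPB read 27.8 and 26 CPM against 24.8 and 24.9 CPM, a log2 fold change of -0.13 (95% interval -0.29 to 0.03, adjusted p = 0.17) that was 0.02 when scaled by library size alone.

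Of the effectors, the mTORC1 brakes rose with PU.1 knockdown. DDIT4 went from 3.52 and 4.38 CPM to 11.1 and 9.35 CPM (1.34 ± 0.16, adjusted p = 1.6e-11), the largest rise of the 10, and SESN2 from 36.6 and 34.6 to 49.5 and 51.1 CPM (0.49 ± 0.068, adjusted p = 3.4e-09). TRIB3 read 14.4 and 15 CPM against 15.4 and 18.3 CPM (0.19, 95% interval -0.02 to 0.39, adjusted p = 0.11), and scaled by library size alone it passed at 0.34 (adjusted p = 0.0021). CHAC1 was close to the limit of detection in this experiment, with 19 and 32 counts in the controls and 19 and 10 after knockdown (0.581 and 0.82 CPM against 0.673 and 0.273 CPM). Its groups overlap, and the log2 fold change of -0.63 has an interval of -1.67 to 0.41 (adjusted p = 0.3), so neither a rise nor a fall of this gene was detectable at these counts.

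The PU.1 effect minus the PSPC1 effect in OCIAML5, each against the controls of its own experiment, was higher for 10 of 10 members, beside 22.8% of all 17159 genes tested called higher and 45.6% in either direction. The differences ran from 0.44 ± 0.095 for SESN2 (adjusted p = 0.00013) and 0.59 ± 0.06 for ATF4 (adjusted p = 1.5e-11) to 3.79 ± 0.5 for CHAC1 (adjusted p = 1.3e-08) and 3.90 ± 0.22 for DDIT4 (adjusted p = 1.6e-19). PSPC1 was itself lower in both knockdowns (log2 fold changes -2.38 and -0.89). CHAC1 had only 19 and 32 counts in the PU.1 controls, so a further fall was not detectable there. The contrast of the 2 effects uses both control groups, and these groups themselves differed in the axis, as follows.

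The OCIAML5 controls of the 2 experiments have the same line, treatment label, medium and GM-CSF, and were deposited in different tables. Of the 10 members 9 were lower in the PU.1 experiment, beside 18.9% of all genes tested called lower and 38.9% in either direction, with a median difference of -1.18 for the members and 0.00 for all genes. CHAC1 read 0.581 and 0.82 CPM there against 34.7 and 32.4 CPM with the other controls, a log2 difference of -5.56 ± 0.22 (adjusted p = 8.1e-25), and 0.04% of all genes tested had a lower one. DDIT4 was at 3.52 and 4.38 against 22.9 and 25.6 CPM (-2.61 ± 0.15, adjusted p = 4.2e-19). DDIT3 was at 2.97 and 3.33 against 12.1 and 11.9 CPM (-1.93 ± 0.2, adjusted p = 4.3e-11), and ATF3 at 4.22 and 4.46 against 13 and 15.5 CPM (-1.72 ± 0.17, adjusted p = 1.9e-11). In these 4 genes the libraries of the 2 control groups did not overlap, nor did they in any other member except ATF5. The share of all genes without such overlap was not counted. TRIB3 differed by -1.31 ± 0.1 (adjusted p = 1.9e-14), SESN2 by -1.04 ± 0.068 (adjusted p = 3.2e-17), CEBPB by -0.66 ± 0.09 (adjusted p = 4e-08) and CEBPG by -0.41 ± 0.06 (adjusted p = 2.4e-07). The ATF4 message differed least among the 9, by -0.14 ± 0.042 (adjusted p = 0.0066), and that small difference was not called without the filter on low counts (-0.07, adjusted p = 0.59) or without PU.1 control replicate 2 (-0.12, adjusted p = 0.074). ATF5 did not pass (0.19, 95% interval -0.03 to 0.42, adjusted p = 0.18), though without PSPC1 control replicate 1 it was 0.41 (adjusted p = 0.014). Lineage markers differed between these controls in both directions: of 9 myeloid markers tested 3 were higher and 4 lower in the PU.1 experiment, and of 3 B cell markers 1 was higher and 1 lower. FLT3 read 64.7 and 66.9 CPM there against 237 and 247 CPM and PAX5 read 3.43 and 4.1 against 22.6 and 24.2 CPM, while MPO read 10.8 and 10.3 against 2.09 and 2.12 CPM and CD79A 1.71 and 1.56 against 0.275 and 0.321 CPM. Experiment, culture, infection and sequencing cannot be told apart in this comparison.

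Set against the controls of the PU.1 experiment, the OCIAML5 libraries with PSPC1 knockdown gave another picture of the axis. Of the 10 members 4 were lower, beside 32.8% of all genes tested, and 2 were higher, beside 31.4% (64.2% in either direction), with a median log2 difference of -0.08 for the members and 0.00 for all genes. CEBPG was lower against both control groups, here with 34.1 and 33.99 against 84.8 and 88.6 CPM (-1.34 ± 0.066, adjusted p = 1.5e-22). ATF3 (-0.64 ± 0.21, adjusted p = 0.0062), ATF5 (-0.48 ± 0.11, adjusted p = 2e-04) and ATF4 (-0.13 ± 0.042, adjusted p = 0.0077) were also lower. The small differences were less firm, since ATF4 was at -0.03 (adjusted p = 0.54) when scaled by library size alone and ATF3 at -0.55 (adjusted p = 0.067) without knockdown replicate 1. SESN2 was higher, at 76.8 and 73.4 against 36.6 and 34.6 CPM (1.09 ± 0.067, adjusted p = 5.2e-19). CHAC1 was higher too, at 1.83 and 1.11 against 0.581 and 0.82 CPM (1.10 ± 0.32, adjusted p = 0.003), but not without knockdown replicate 1 (0.63, adjusted p = 0.23). DDIT3, DDIT4, CEBPB and TRIB3 did not pass, with log2 differences from -0.13 for TRIB3 to 0.41 for DDIT3; for DDIT4 the interval was -0.32 to 0.42. DDIT3 passed at 0.50 (adjusted p = 0.04) when scaled by library size alone and at 0.70 (adjusted p = 0.008) without knockdown replicate 2, and it was -0.09 without knockdown replicate 1. Knockdown and experiment cannot be told apart in this comparison, which shares its knockdown libraries with the comparison within the PSPC1 experiment and its controls with that of the 2 control groups.

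**Figure D4:**
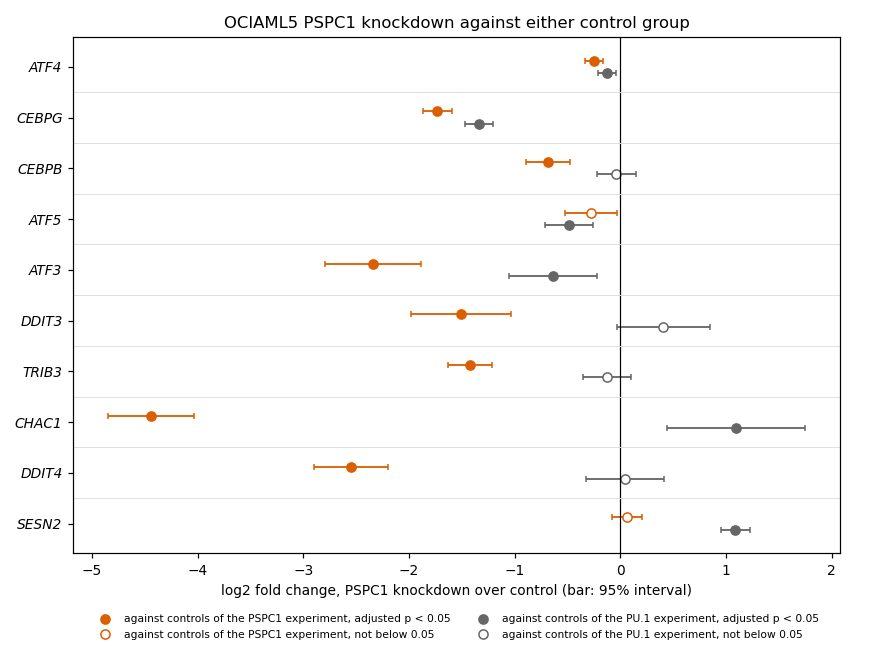
Log2 fold change of each gene in the OCIAML5 libraries with PSPC1 knockdown over the control group of the same experiment (orange) or of the PU.1 experiment (grey), with bars for 95% intervals and filled points for an adjusted p under 0.05. CEBPG lies at -1.73 and -1.34, CHAC1 at -4.44 and 1.10, and DDIT4 at -2.55 and 0.05.

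The lines differed at baseline within the PSPC1 experiment. In the OCIAML5 controls 6 of 10 members were higher than in the MOLM13 controls, beside 30.7% of all genes tested, and 2 were lower, beside 30% (60.6% in either direction). DDIT3 was higher by 1.53 ± 0.24 on the log2 scale (12.1 and 11.9 against 3.22 and 5.27 CPM, adjusted p = 2.5e-07). CEBPB (1.07 ± 0.11), DDIT4 (1.07 ± 0.15), ATF3 (1.03 ± 0.2), CHAC1 (0.89 ± 0.15) and SESN2 (0.70 ± 0.073) were higher with adjusted p from 2.62e-12 for CEBPB to 2.1e-05 for ATF3. ATF5 was lower in OCIAML5 (-1.47 ± 0.11, adjusted p = 9.9e-17), and so was TRIB3 (-1.09 ± 0.088, adjusted p = 2.2e-15). ATF4 (-0.09, adjusted p = 0.056) and CEBPG (-0.07, adjusted p = 0.32) did not pass, although the ATF4 difference passed at -0.10 (adjusted p = 0.034) in a model of all 12 libraries. Line, medium and GM-CSF cannot be told apart here.

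Other genes of the pathway were counted from lists. The shares of all genes tested to set beside these counts are 27.6% higher and 29.5% lower with PSPC1 knockdown in MOLM13, 27.5% and 28.4% in OCIAML5, 29.6% and 30.9% with PU.1 knockdown, and 20% and 18.9% between the OCIAML5 control groups. Of 21 ATF4 target genes of amino acid synthesis and transport, all 21 fell in MOLM13 with PSPC1 knockdown (median log2 fold change -2.02) and 19 fell in OCIAML5 (-1.56). SLC7A5, the large neutral amino acid transporter, fell by 3.38 and 1.97 on the log2 scale, and PSAT1, of serine synthesis, by 3.25 and 3.07. Of 13 tRNA synthetase and tRNA export genes 12 fell in each line (medians -0.85 and -1.02), AARS1, the alanine enzyme, with log2 fold changes of -1.498 and -1.69. With PU.1 knockdown 14 of 20 amino acid genes fell and 4 rose (median -0.38), while 9 fell when scaled by library size alone and 2 rose with DESeq2. Of the 13 synthetase and export genes 9 fell and 1 rose (-0.39). The 1 that rose was the tRNA exporter XPOT, from 321 and 313 CPM to 390 and 377 CPM. In the same comparison 6 of the 10 axis members rose. PSAT1 fell by 1.46 and GARS1, the glycine enzyme, by 0.89, while SLC7A11, the cystine transporter, rose by 1.76, from 9.09 and 11.4 CPM to 36.4 and 34.3 CPM. Between the OCIAML5 control groups, 19 of 20 amino acid genes and 13 of 13 synthetase and export genes were lower in the PU.1 experiment (medians -1.09 and -0.65). WARS1, the tryptophan enzyme, had a log2 difference of -1.65. A further list of other ATF4 targets was mixed. In it 9 of 15 genes fell and 4 rose in MOLM13 (median -1.20) and 7 fell and 5 rose in OCIAML5 (-0.88) with PSPC1 knockdown. With PU.1 knockdown 8 of 17 rose and 6 fell (0.54, against -0.38 for the amino acid genes), and 11 of 17 were lower and 3 higher between the control groups (-0.66). The lists share some genes. CEBPE, on this one, is also counted among the other C/EBP factors below, and GDF15 among the p53 targets.

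Upstream of ATF4, a list held the eIF2alpha kinases, eIF2 subunits and phosphatase subunits. It also held the EIF2B subunit genes, GCN1, IMPACT, DELE1 and OMA1. The messages on this list gave calls in both directions at shares near those of all genes for the rises. Of 18 genes, 8 fell and 5 rose in MOLM13 and 7 fell and 4 rose in OCIAML5 after PSPC1 knockdown. The count that rose was 3 in MOLM13 without control replicate 2, and 2 in OCIAML5 without control replicate 1, knockdown replicate 1 or knockdown replicate 2. EIF2AK2, the double-stranded RNA kinase PKR, rose by 0.95 and 1.07, and EIF2S1, which is eIF2alpha itself, fell by 0.88 and 0.70. With PU.1 knockdown 9 fell and 4 rose. EIF2S1 fell there as well, by 0.99, and PPP1R15A, the stress-induced phosphatase subunit GADD34, rose by 0.88. Mean PPP1R15A was also higher with the PSPC1 hairpin in MOLM13, at 63.7 CPM beside a control mean of 31.0 CPM. For OCIAML5 the matching means were 50.3 CPM and 48.9 CPM. The PSPC1 effect on PPP1R15A in OCIAML5 minus that in MOLM13 was -0.96 (adjusted p = 3.7e-09). Between the OCIAML5 control groups, PPP1R15A was lower in the PU.1 experiment, at 24.9 and 23.9 against 48.1 and 49.7 CPM, a log2 difference of -1.01. Genes of the endoplasmic reticulum unfolded protein response differed between the lines within the PSPC1 experiment. With PSPC1 knockdown 11 of 21 fell and 6 rose in MOLM13 (median -0.35), and 15 rose and 4 fell in OCIAML5 (0.37). In OCIAML5 the chaperone HSPA5 rose by 0.72 and SEL1L by 0.99. XBP1, on the same list, went down in both lines. It read 435 and 430 CPM in the MOLM13 controls against 111 and 110 CPM with PSPC1 knockdown. In OCIAML5 it read 413 and 425 CPM against 146 and 139 CPM. The shares of all genes were 29.5% lower and 27.6% higher in MOLM13, and 27.5% higher and 28.4% lower in OCIAML5. For this list the difference between the lines passed for 14 of 21 genes, each higher in OCIAML5, beside 18% of all genes called higher. The OCIAML5 counts depend on the control group. Between the OCIAML5 controls 13 of 21 were higher and 2 lower in the PU.1 experiment, beside 20% and 18.9% of all genes. Against those controls 10 were higher and 9 lower with PSPC1 knockdown (median 0.09), beside 31.4% and 32.8%. HSPA5 read 717 and 706 CPM after PSPC1 knockdown, 437 and 442 CPM in its own controls and 722 and 754 CPM in the others.

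Members with a further known inducer were set beside lists for it. Of 23 p53 targets, 17 rose in MOLM13 and 22 in OCIAML5 with PSPC1 knockdown, and 19 of 24 rose with PU.1 knockdown, beside 27.6%, 27.5% and 29.6% of all genes. CDKN1A, the cell cycle inhibitor p21, rose by 1.62, 2.78 and 1.62. In the same comparisons SESN2 rose with PU.1 knockdown and had no call with PSPC1 knockdown, and DDIT4 fell with PSPC1 knockdown and rose with PU.1 knockdown. Of 9 genes induced by glucocorticoids, a class to which DDIT4 also belongs, 8 fell in MOLM13 and 7 in OCIAML5 with PSPC1 knockdown (medians -0.92 and -1.21), and 9 of 9 rose with PU.1 knockdown (0.87), beside 29.5% and 28.4% of all genes called lower and 29.6% called higher. FKBP5, a co-chaperone of the glucocorticoid receptor, fell by 1.42 and 1.51 with PSPC1 knockdown, and IRS2, an insulin receptor substrate, rose by 0.87 with PU.1 knockdown. Between the OCIAML5 control groups 3 of these 9 genes were lower and 1 higher in the PU.1 experiment. Of the other C/EBP factors, CEBPA fell with PSPC1 knockdown, by 0.85 and 0.41, and rose by 0.62 with PU.1 knockdown, and CEBPE, a factor of granulocyte maturation, rose from 12.9 and 12.5 CPM to 111 and 109.6 CPM with PU.1 knockdown (3.11). Of 20 mTORC1 regulators tested, several counts were near the shares of all genes given above: 6 rose and 9 fell in MOLM13 and 10 rose and 8 fell in OCIAML5 with PSPC1 knockdown, and 8 rose and 6 fell with PU.1 knockdown (5 rose with DESeq2, with no filter on low counts or without either knockdown replicate, and 13 by library size alone). EIF4EBP1, a brake on cap-dependent translation and itself an ATF4 target, fell by 1.73, 1.70 and 0.92 in these comparisons, and SESN3, the sestrin paralog of SESN2, rose by 1.91 in OCIAML5 with PSPC1 knockdown and by 1.52 with PU.1 knockdown. Of 11 glutathione genes, set beside CHAC1, 4 rose and 6 fell in MOLM13, 3 rose and 5 fell in OCIAML5, and 6 rose and 4 fell with PU.1 knockdown. The 3 of 11 that rose in OCIAML5 and the 4 of 11 that fell with PU.1 knockdown lie near the 27.5% and 30.9% of all genes.

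**Figure D5:**
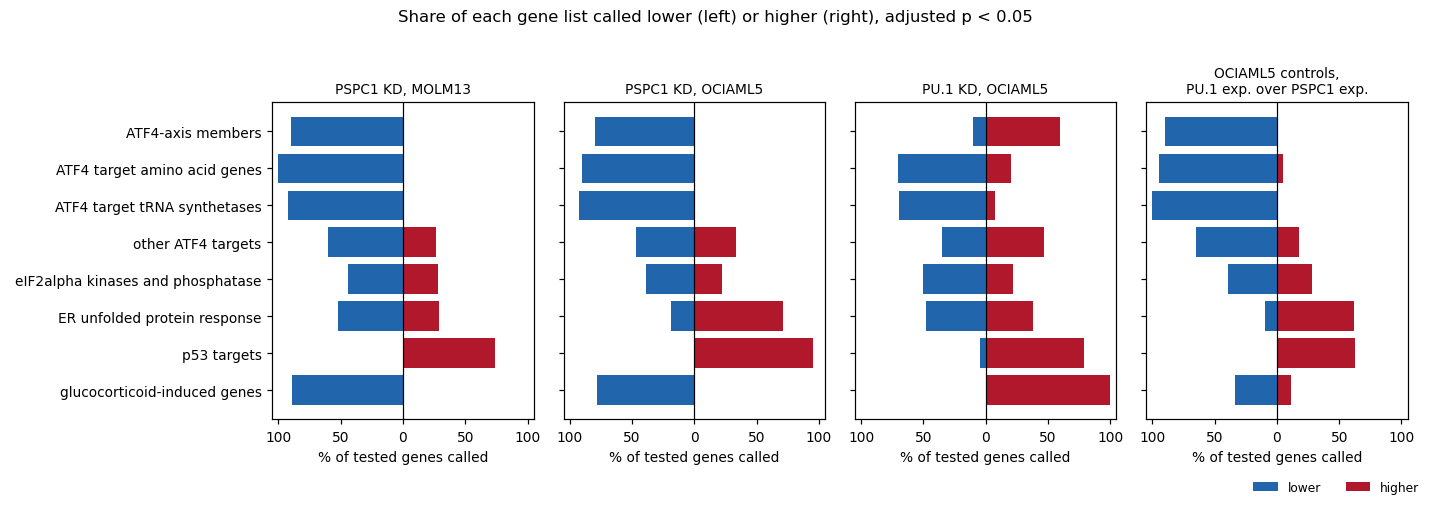
Share of the tested genes of each list called lower (blue, to the left) or higher (red, to the right) at an adjusted p under 0.05 in 4 comparisons. With PU.1 knockdown 6 of the 10 axis members are called higher while 14 of 20 amino acid target genes are called lower.

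Over the 12 libraries the genes whose log2 level ran most like that of ATF4, among 7245 other genes whose mean reached 5 CPM in some group and group means that spanned at least 1 on the log2 scale, were TMX4 (Pearson r = 0.96), MPST (0.94), RGS16 (0.94), GRB10 (0.94) and KLF9 (0.93). Those most like CHAC1 were WARS1 (0.96), PTPN3 (0.95), CARS1 (0.95), MTRR (0.94) and GARS1 (0.93). Of the other members ATF3 was the most like ATF4 (0.85) and TRIB3 the most like CHAC1 (0.82), and ATF4 and CHAC1 had an r of 0.19. The points come in pairs from 6 groups, so these values describe the groups and carry no test.

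The counts of some members depend on how reads were assigned. DDIT3 shares part of its span with MARS1, the methionine tRNA synthetase gene on the opposite strand, which fell by 1.11 in OCIAML5 after PSPC1 knockdown (305 and 310 CPM to 139.8 and 140.8 CPM). DDIT3 also overlaps MBD6 on the opposite strand, and the protein-coding gene AC022506.1 and the microRNA gene MIR616 on its own strand. ATF5 overlaps NUP62, IL4I1 and AC011452.1 on the opposite strand and the microRNA gene MIR4751 on its own strand. DDIT4 and CEBPB each overlap an antisense gene. The library kit keeps strand, but the labels leave the strand setting of the counts unstated, so reads of the opposite-strand partners cannot be told apart from those of the members. For the same-strand partners of DDIT3 and ATF5 a strand setting would not separate the reads either. The genes ATF4, ATF3, CEBPG, TRIB3, SESN2 and CHAC1 overlap no other annotated gene.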

How the data were processed

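RNA from 12 libraries of MOLM13 and OCIAML5 cells was made into stranded mRNA libraries, per the labels' protocols. The authors deposited raw counts per gene symbol, with 8 libraries in the PSPC1 experiment and 4 in the PU.1 experiment. The submitters' processing notes name Trim Galore 0.6.7, STAR 2.7.10a, HTSeq 2.0.2, DESeq2 1.36.0 and GRCh38, without roles; they state neither the annotation release nor the strand setting. The members and lists were chosen with earlier results of these data known.

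Counts were fitted in R 4.3.3 with edgeR 4.0.16 (filterByExpr, TMM, quasi-likelihood F tests, Benjamini-Hochberg adjustment over all genes tested, threshold 0.05). The PSPC1 counts were fitted over 4 groups (16457 genes), the PU.1 counts over 2 groups (16861), and the 8 OCIAML5 libraries were joined for comparisons across experiments (17159). Standard errors are the log2 fold change over the root of F. CPM are counts over library sizes scaled by TMM across the 12 libraries, and differ from each table's own scale by up to 3.49%. Named were all members, PSPC1 and SPI1, up to 3 genes per list and comparison with the smallest adjusted p, and the 5 genes most like ATF4 or CHAC1. FLT3, PAX5, the other markers and XBP1 were chosen after their values were seen. Alternatives were DESeq2 1.42.0, RLE or library-size scaling, other filters, a replicate block, 1 fit of all libraries, each line alone and leaving out each library. The code was tested on simulated data. Plots were made in matplotlib 3.10.9 (Python 3.11.15).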

Additional observations from a re-analysis of the deposited data

Results flagged for a closer look

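These results stood out because the effect of a knockdown differed between lines or between knockdowns in a test of the difference itself. The PSPC1 effect in OCIAML5 minus that in MOLM13 was 0.74 for ATF4, 0.70 for TRIB3 and -1.06 for CHAC1 on the log2 scale, so the message of ATF4 fell less in OCIAML5 while that of CHAC1 fell more. The CHAC1 difference is less firm. It rests on knockdown libraries of 20 to 44 counts, and its call was lost when certain of them were left out. The PU.1 effect minus the PSPC1 effect in OCIAML5 was 0.59 for ATF4, 3.18 for ATF3, 1.03 for ATF5, 2.03 for DDIT3, 3.90 for DDIT4, 0.57 for CEBPB, 1.31 for CEBPG, 1.62 for TRIB3, 0.44 for SESN2 and 3.79 for CHAC1. For CHAC1, DDIT4, DDIT3 and ATF3 the control groups of the 2 experiments differed by -5.56, -2.61, -1.93 and -1.72, which enters that difference. No group held enough libraries to look for a single library far from the rest.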

How the results depend on the processing

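Of 60 member results called, 52 kept their call and direction under every alternative run and 8 lost the call in some. Of 1179 member values under alternatives, 19 changed sign, all for results without a call in either fit. These were ATF5 in the difference between lines (0.02; -0.0020 with DESeq2, -0.0078 with RLE size factors, -0.015 in 1 model of all libraries, and -0.16 to 0.25 leaving out a library) and ATF3 there (-0.03; 0.0034 by library size alone, 0.00093 with the replicate block, -0.41 to 0.56 leaving out a library). CEBPB was 0.022 with PU.1 knockdown and 0.061 against the other controls by library size alone (-0.15 to 0.026 leaving out a library); DDIT4 against the other controls was -0.020 without a filter (-0.12 to 0.21), and DDIT3 ranged from -0.090 to 0.70. Leaving out a library, the members called lower in the difference between lines numbered 0 to 2, the members called higher between the control groups 0 to 1, and the members called higher with PSPC1 knockdown against the other controls 1 to 3. Without the filter on low counts, all genes called lower between the control groups numbered 2087 against 3250, and by library size alone the PU.1 split of all genes was 6583 higher and 3995 lower against 4983 and 5206. The replicate block left every count of members called as it was (9 lower in MOLM13, 8 in OCIAML5 and 6 higher with PU.1 knockdown). Same-numbered libraries did not deviate together over the genes (correlations 0.0032, -0.014 and -0.077). Such values cannot tell whether the numbers mark a shared culture or infection, which the labels do not say. Low counts limit CHAC1 in the PU.1 experiment and DDIT3 and ATF3 after PSPC1 knockdown in MOLM13. With PU.1 knockdown CHAC1 did not pass the 1 CPM filter and has no value there.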
